A study of Mus musculus with 10 samples.

Results

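The genes described here are 9 members of the TEAD and YAP pathway: *Tead1*, *Tead2*, *Tead3*, *Tead4*, *Yap1*, *Wwtr1*, *Lats1*, *Lats2* and *Amotl2*. Their accessible sites were taken from ATAC-seq of mouse neural stem and progenitor cells (NSPCs) in 3 states. A site was given to a member when it lay in the gene or within 50 kb of it and its nearest protein-coding transcription start site (TSS) belonged to that gene. By this rule the 9 genes held 84 of the 108367 sites found in the 6 ATAC-seq libraries, or 0.0775%. They also held 18 of 17468 regions marked by H3K4me3, a histone mark of promoters.

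NSPCs came from C57BL/6 mice at postnatal day 5 and were grown in culture. Activated cells received 20 ng/ml EGF and 20 ng/ml FGF2, and quiescent cells received 25 ng/ml BMP4 with 20 ng/ml FGF2 and no EGF for 4 days by the labels, although the ATAC-seq methods give a shorter time. Reactivated cells were returned to activation medium for 9 to 12 days after 4 days of BMP4. By the methods, activated cells were collected sooner after plating than quiescent or reactivated cells, so state and time in culture cannot be told apart. ATAC-seq, in which a transposase inserts adapters into open DNA, was done on 2 libraries for each state, and H3K4me3 ChIP-seq on 1 library each of quiescent and activated cells. The labels name no genetic change in any group. The cells are a mixed culture of stem and progenitor cells, and the methods call the 2 libraries of a state biologically independent without naming the animals, so the p-values measure the spread between these libraries alone.

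TEAD1 to TEAD4 are DNA-binding factors that act on their target genes mainly when joined by a coactivator, YAP (from *Yap1*) or TAZ (from *Wwtr1*). The kinases LATS1 and LATS2 of the Hippo pathway phosphorylate YAP and TAZ and so keep them in the cytoplasm, and AMOTL2, an angiomotin family protein, binds YAP and holds it at cell junctions. *Lats2* and *Amotl2* are also known targets of YAP, which gives the pathway a feedback arm. In the developing brain YAP is found in radial glia and other progenitors and is known for promoting their growth.

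The values are fold enrichments of peaks over the background of the same library, on a linear scale. A site is the merged span of the peaks of the 6 libraries that touch each other, and its value in a library is its highest peak. Sites are named by gene and by distance in bp from the nearest protein-coding TSS of the gene, with plus for downstream, so that *Yap1* +32846 lies in the gene and *Yap1* -76 at its start. The lists held 47037 to 106830 peaks, most in the reactivated libraries. The background pileup was 12.1 reads in quiescent replicate 2 and 6.01 to 6.61 in the others, and the lowest called pileup was 25 and 16 to 17 reads, so a site without a peak may still have been open below that depth. Peak names carry a lane label that is the same only for quiescent replicate 2 and activated replicate 1. The reactivated libraries carry none and were down-sampled before peak calling, so their processing and their state cannot be told apart. All 6 progenitor markers looked at, among them *Sox2* and *Nes*, had a promoter peak in every ATAC-seq library. Of 6 neuronal markers 3 to 5 had one, with the most in the reactivated libraries. Microglial markers had a promoter peak at 1 to 2 of 6 genes, endothelial at 1 to 2, oligodendrocyte at 0 to 2 and fibroblast at 0 to 3, the last with 3 in both reactivated libraries, and their part in the results was not tested.

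The sequences that the results turn on are shown first. They are windows of 200 bp centred on the summit of a site, read from the plus strand of GRCm38.p6. Capitals mark each exact match, on either strand, to the TEAD core GGAATG, read as CATTCC on the other strand, to the AP-1 motif TGANTCA or to the E-box CAGCTG, where N is any base. The first pair are the strongest quiescent-specific site, in an intron of *Yap1*, and the quiescent-specific site in an intron of *Wwtr1*. Neither holds any of these motifs.
Yap1 +32846, chr9:7968757-7968956: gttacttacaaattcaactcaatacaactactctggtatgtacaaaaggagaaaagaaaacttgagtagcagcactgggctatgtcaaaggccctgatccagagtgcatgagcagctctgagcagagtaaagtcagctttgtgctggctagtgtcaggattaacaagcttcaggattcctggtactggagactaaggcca
Wwtr1 +44635, chr3:57531093-57531292: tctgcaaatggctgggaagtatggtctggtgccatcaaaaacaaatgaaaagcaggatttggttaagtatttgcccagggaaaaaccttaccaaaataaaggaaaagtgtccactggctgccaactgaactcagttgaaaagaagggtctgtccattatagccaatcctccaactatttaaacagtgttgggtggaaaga

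The next pair are activated-specific sites that do hold the TEAD core, 1 match each, in *Tead1* and *Lats2*. The *Lats2* window is the strongest activated-specific site of the 9 genes.
Tead1 +82626, chr7:112842062-112842261: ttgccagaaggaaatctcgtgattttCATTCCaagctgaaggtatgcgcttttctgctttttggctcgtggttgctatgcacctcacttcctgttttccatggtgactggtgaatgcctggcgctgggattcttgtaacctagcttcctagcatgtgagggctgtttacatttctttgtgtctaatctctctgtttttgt
Lats2 -2087, chr14:57736287-57736486: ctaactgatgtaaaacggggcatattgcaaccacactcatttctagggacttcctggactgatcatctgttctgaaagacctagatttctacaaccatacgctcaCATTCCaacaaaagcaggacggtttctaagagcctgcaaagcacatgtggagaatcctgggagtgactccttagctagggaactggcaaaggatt

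The next pair are sites present in all 6 libraries whose strength differed between states. *Tead1* +1410 holds 2 E-boxes, and *Tead4* -6711 holds a TEAD core and an AP-1 motif.
Tead1 +1410, chr7:112760846-112761045: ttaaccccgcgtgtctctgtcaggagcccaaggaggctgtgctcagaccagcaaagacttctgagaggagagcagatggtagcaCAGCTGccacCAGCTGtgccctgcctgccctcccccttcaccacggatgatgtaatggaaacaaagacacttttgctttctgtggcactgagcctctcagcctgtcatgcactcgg
Tead4 -6711, chr6:128282188-128282387: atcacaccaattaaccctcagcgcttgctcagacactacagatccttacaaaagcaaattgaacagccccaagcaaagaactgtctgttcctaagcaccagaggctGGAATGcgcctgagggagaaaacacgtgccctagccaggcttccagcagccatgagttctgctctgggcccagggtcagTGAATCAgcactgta

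The last group are 3 promoters of the pathway's own genes that hold the TEAD core. The window at *Tead4* has 3 matches, and those at *Yap1* and *Amotl2* have 1 each.
Tead4 +257, chr6:128300381-128300580: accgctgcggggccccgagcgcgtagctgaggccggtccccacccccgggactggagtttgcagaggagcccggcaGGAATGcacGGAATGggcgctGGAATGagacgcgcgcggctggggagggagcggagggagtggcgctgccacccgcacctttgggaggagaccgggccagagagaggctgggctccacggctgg
Yap1 -76, chr9:8004572-8004771: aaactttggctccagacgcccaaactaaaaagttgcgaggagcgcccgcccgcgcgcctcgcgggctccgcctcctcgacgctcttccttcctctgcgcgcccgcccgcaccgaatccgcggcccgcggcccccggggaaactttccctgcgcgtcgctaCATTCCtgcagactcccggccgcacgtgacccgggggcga
Amotl2 -60, chr9:102717508-102717707: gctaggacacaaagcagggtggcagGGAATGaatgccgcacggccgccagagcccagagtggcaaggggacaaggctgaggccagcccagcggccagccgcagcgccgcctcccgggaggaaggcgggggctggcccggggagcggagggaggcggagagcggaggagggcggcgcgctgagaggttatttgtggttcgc

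Each of the 9 genes had a promoter peak in all 6 ATAC-seq libraries, except *Tead2*, which had one in 5. Of the 15 sites that were specific to a state or passed a test below, 13 lay away from promoters. Of the 84 sites, 15 lay within 1 kb of a protein-coding TSS and 69 away from one. *Tead1*, the longest gene at 227 kb, held 32 sites, *Lats2* 12, *Tead4* and *Yap1* 10 each, *Wwtr1* 8, *Amotl2* 7, *Tead2* and *Tead3* 2 each and *Lats1* 1. A peak was present in both libraries at 30 sites in quiescent, 32 in activated and 53 in reactivated cells, or 35.7%, 38.1% and 63.1% of the member sites. Over all sites the same shares were 31.7%, 29.1% and 61.1%. Peaks were present in all 6 libraries at 18 member sites, where 21.3% of all sites had them, and 20 member sites had a peak in 1 library alone.

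**Figure D1:**
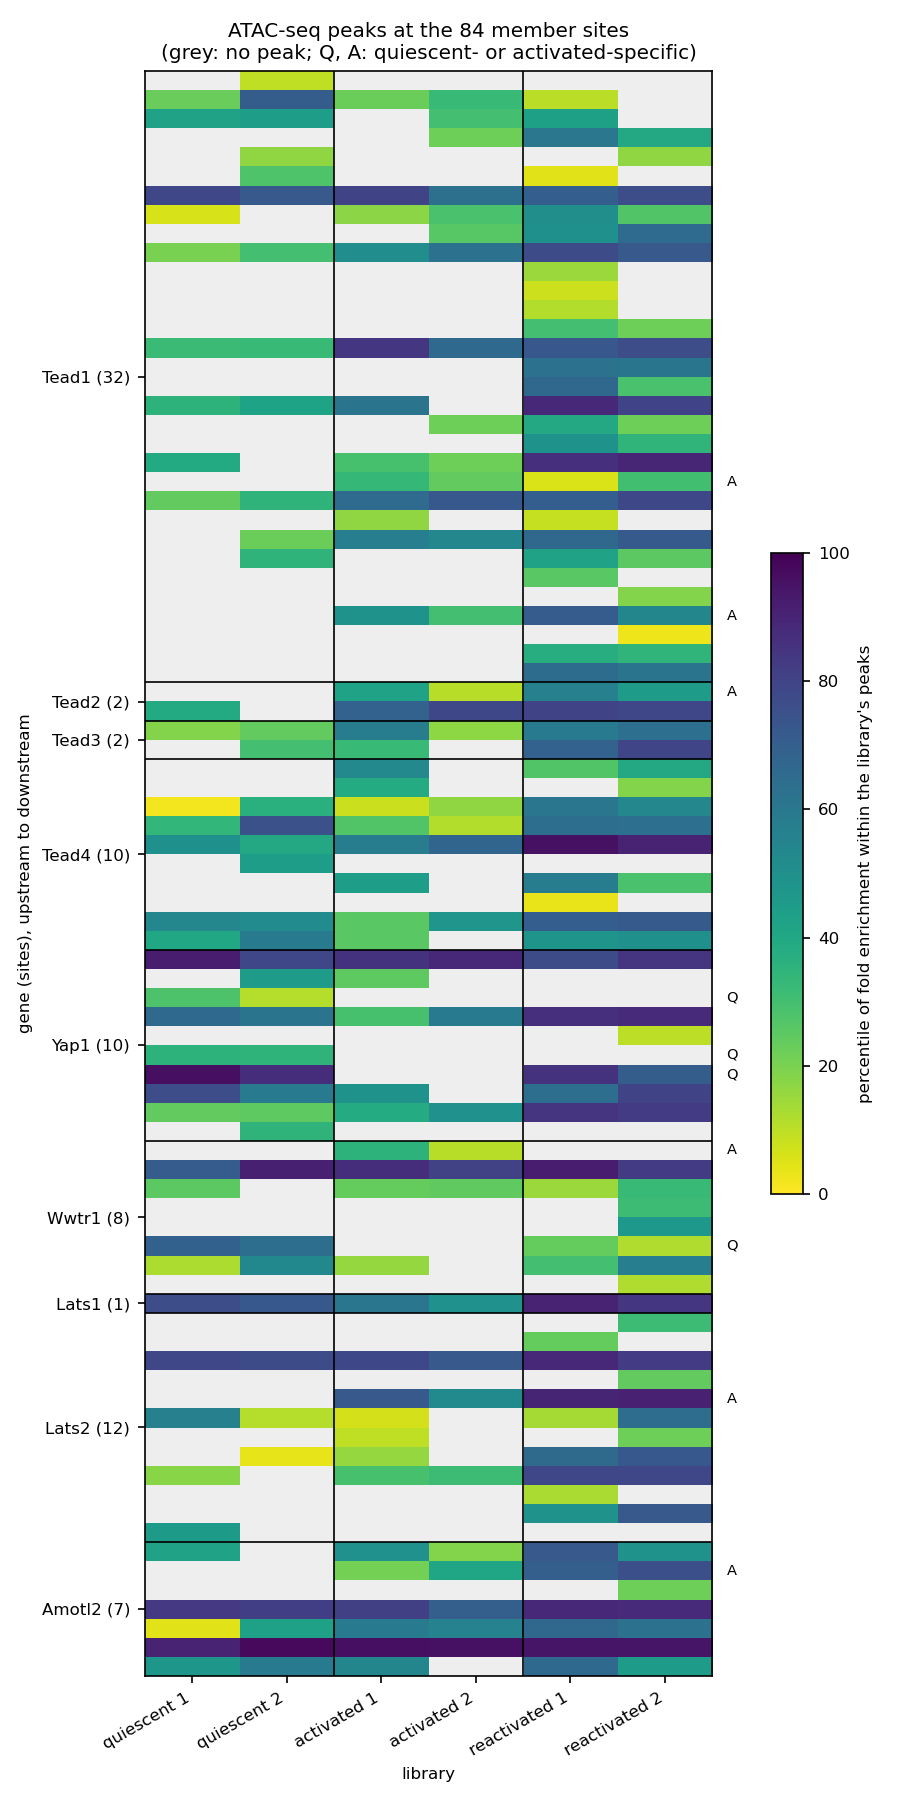
Each row is 1 of the 84 member sites, ordered within each gene from upstream to downstream, and each column is 1 ATAC-seq library. Colour gives the percentile of the site's fold enrichment among all peaks of that library, grey means no peak, and Q and A mark the 4 quiescent-specific and 6 activated-specific sites; 3 of the 4 quiescent-specific sites are in *Yap1*.

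Sites were then sorted by their peak calls in the quiescent and activated libraries. Of the 46 member sites with a peak in at least 2 of these 4 libraries, 36 were shared, meaning that at least 1 quiescent and 1 activated library had a peak. The background share is 75.3% of 46050 such sites over the genome, against 78.3% of member sites. A further 4 were quiescent-specific, with a peak in both quiescent and neither activated library, where 14.7% of all such sites were. The remaining 6 were activated-specific, where 9.97% of all such sites were. Of the 4 quiescent-specific sites 2 had a peak in both reactivated libraries, and of the 6 activated-specific sites 5 did, where 55.0% and 91.9% of all sites of these classes did. Another 7 member sites had peaks in both reactivated libraries and nowhere else, 8.33% of the 84, where 14.8% of all sites did. 6 of these were in *Tead1* and 1 in *Lats2*.

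The strength of sites was compared by limma on log2 fold enrichment, with each library centred on its median, over the 23116 sites that had a peak in all 6 libraries. These included 18 of the 84 member sites, and the other 66 could not be tested in this way. Activated against quiescent, 2 of the 18 passed an adjusted p of 0.05, both higher in activated cells, where 11.0% of all sites tested passed in either direction, 5.76% higher and 5.29% lower. Reactivated against quiescent, 3 of the 18 passed, 2 higher and 1 lower, where 33.6% of all sites passed, 11.2% higher and 22.5% lower. Reactivated against activated, none of the 18 passed by limma, with a lowest adjusted p of 0.0564, where 16.6% of all sites passed, 6.62% higher and 9.95% lower. There 8 of the 18 had an unadjusted p under 0.05, where 34.4% of all sites did, and 1 passed when pileups over the library's background were used in place of fold enrichment. The median log2 change of the 18 was -0.01, 0.11 and -0.06 in the 3 comparisons, beside -0.07, -0.15 and -0.11 over all sites tested. The last 2 comparisons share the reactivated libraries, and the first 2 the quiescent libraries.

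Centring matters here. The median log2 fold enrichment of a library over these sites was higher by 0.22 in activated than in quiescent, by 0.87 in reactivated than in quiescent and by 0.65 in reactivated than in activated cells. All changes given are relative to these shifts. With centring, 1331 of 2554, 2583 of 7773 and 1531 of 3830 calls over all sites were higher in the first-named state, or 52.1%, 33.2% and 40%. Without centring 83.4%, 99.3% and 99.3% were, and with quantile normalization 55.4%, 48.9% and 52.2%.

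**Figure D2:**
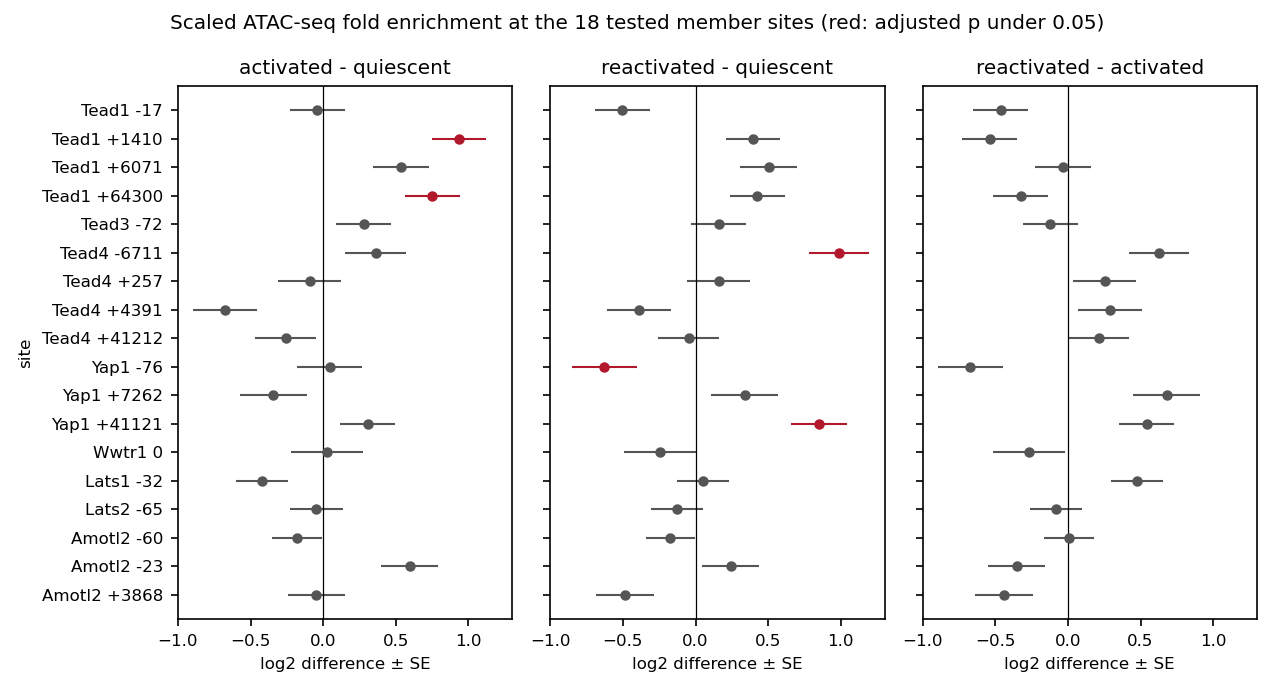
Points are the log2 difference in scaled fold enrichment at each of the 18 member sites with a peak in all 6 libraries, and bars are ± SE from limma, for 3 comparisons of states with 2 libraries each. Red points passed an adjusted p of 0.05: *Tead1* +1410 and +64300 in the first panel, and *Tead4* -6711, *Yap1* +41121 and *Yap1* -76 in the second.

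Among the genes for the DNA-binding factors, *Tead1* held both sites that passed the test between activated and quiescent cells and 2 of the 3 activated-specific sites. Its 32 sites ran from 41.7 kb upstream through the introns, and a peak was present in both libraries at 7 of them in quiescent, 10 in activated and 20 in reactivated cells. Its promoter site, *Tead1* -17, had a fold enrichment of 6.53 and 4.97 in quiescent cells, 7.84 and 5.33 in activated and 6.84 and 7.93 in reactivated libraries, replicates in order of number. These ranges overlapped between quiescent and activated cells, and on the scaled log2 scale the difference was -0.04 ± 0.19 (SE, n = 2 per state, adjusted p = 0.920 by limma).

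The site *Tead1* +1410 (chr7:112760766-112761179), in an intron near an internal TSS, was higher in activated cells. Its fold enrichment was 3.42 and 2.90 in quiescent cells, 8.89 and 5.56 in activated and 7.30 and 7.90 in reactivated libraries. Both activated libraries lay above both quiescent libraries. Activated and quiescent cells differed by 0.94 ± 0.19 on the scaled log2 scale (SE, n = 2 per state), or 1.91-fold, with an adjusted p of 0.00757 by limma, and 1.20 within the pair of libraries with the same lane label. Its adjusted p was 0.0523 without quiescent replicate 1, 0.0721 without quiescent replicate 2 and 0.0545 without activated replicate 1, with log2 differences of 0.97, 0.86 and 0.74.

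The site *Tead1* +64300 (chr7:112823647-112824010), also intronic, was also higher in activated cells. Its fold enrichment was 3.16 and 2.98 in quiescent cells, 5.78 and 6.27 in activated and 6.83 and 8.35 in reactivated libraries. The quiescent libraries were the lowest, with no overlap with the activated ones. The scaled log2 difference between activated and quiescent cells was 0.75 ± 0.19 (SE, n = 2 per state, adjusted p = 0.0249 by limma), and 0.55 within the pair with the same lane label. The adjusted p rose to 0.130, 0.111 and 0.127 without quiescent replicate 1, quiescent replicate 2 and activated replicate 2, 0.101 with missing peaks at the lowest value and 0.0559 with the mean of the peaks in a site. Against quiescent cells, reactivated cells gave 0.39 at *Tead1* +1410 (adjusted p = 0.120 by limma) and 0.43 at *Tead1* +64300 (adjusted p = 0.101 by limma).

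*Tead1* also held 2 activated-specific sites. With 1 TSS for each gene neither these nor *Tead1* +64300 were assigned to *Tead1*, their nearest TSS then being that of *Rassf10*, while *Tead1* +1410 was. *Tead1* +63525 (chr7:112822862-112823196) had a fold enrichment of 3.73 and 3.32 in activated and 2.69 and 3.82 in reactivated libraries and no peak in quiescent ones. *Tead1* +82626 (chr7:112841916-112842319), which overlaps an exon, had 4.51 and 3.57 in activated and 6.99 and 5.19 in reactivated libraries. Both were of low to middle rank, between the 23.9th and 48.7th percentiles of the peaks in the activated libraries. In reactivated cells alone, 6 further sites of *Tead1* had peaks in both libraries, the highest by mean percentile *Tead1* +96735 (6.18 and 5.85) and *Tead1* +3835 (5.95 and 5.84).

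*Tead2*, the family member known for its expression in early embryos and neural progenitors, had 2 sites, both at promoters. *Tead2* -13 (chr7:45215709-45216409) was activated-specific, with a fold enrichment of 4.15 and 2.85 in activated and 5.35 and 4.54 in reactivated libraries. The adjoining *Tead2* +2 was shared, with 3.68 in quiescent replicate 1, no peak in quiescent replicate 2, 6.19 and 6.99 in activated and 8.49 and 8.41 in reactivated libraries. The gene thus had a promoter peak in 1 of 2 quiescent libraries, and when the 2 sites were merged across a gap of up to 150 bp the merged site was shared. *Tead2* -13 was also lost as a specific site when every list was limited to its 47037 strongest peaks. The same happened at a −log10 q of 10 or more and when reactivated replicate 1 was left out.

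*Tead3* had a promoter site of modest strength, *Tead3* -72, with a fold enrichment of 2.99 and 2.67 in quiescent cells, 5.14 and 3.12 in activated and 5.51 and 6.06 in reactivated libraries. The scaled log2 difference between activated and quiescent cells was 0.28 ± 0.19 (SE, n = 2 per state, adjusted p = 0.384 by limma). Its second site, *Tead3* +9105 in an intron, reached 6.65 and 8.49 in reactivated cells and had a peak in 1 library each of the other states.

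*Tead4*, known for its role in the trophoblast lineage, had its strongest site away from its promoter. At *Tead4* -6711 (chr6:128282115-128282659), in an intron upstream of an internal TSS, the fold enrichment was 4.15 and 3.13 in quiescent cells, 5.11 and 5.70 in activated and 14.3 and 12.0 in reactivated libraries. Both reactivated libraries stood above the other 4. Reactivated cells were higher than quiescent cells by 0.99 ± 0.21 on that scale (SE, n = 2 per state), or 1.99-fold, with an adjusted p of 0.00489 by limma. The adjusted p was 0.0553 without quiescent replicate 2, 0.0535 without reactivated replicate 1 and 0.0621 with the mean of the peaks in a site. Between reactivated and activated cells the difference was 0.63 (adjusted p = 0.0564 by limma).

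The *Tead4* promoter, *Tead4* +257, was among the weaker member promoters, with a fold enrichment of 2.32 and 3.06 in quiescent cells, 2.75 and 3.08 in activated and 5.74 and 5.17 in reactivated libraries. The scaled difference between activated and quiescent cells was -0.09 ± 0.22 (SE, n = 2 per state, adjusted p = 0.830 by limma). At *Tead4* +4391, in an intron, the deposited values were lower in activated cells, with 3.52 and 5.35 in quiescent cells, 3.51 and 2.85 in activated and 6.11 and 6.05 in reactivated libraries. The scaled log2 difference of -0.68 ± 0.22 (SE, n = 2 per state) did not pass (adjusted p = 0.0685 by limma), and it did when quiescent replicate 1 was left out.

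*Yap1* was the gene with most of the quiescent-specific sites. A peak was present in both libraries at 7 of its 10 sites in quiescent, 3 in activated and 5 in reactivated cells. By library, 7 and 9 of the 10 sites had a peak in quiescent cells, 5 and 3 in activated and 5 and 6 in reactivated libraries. Over all 84 sites the quiescent libraries held 37 and 40 against 46 and 36. By single peaks, of which a site can hold several, *Yap1* had 7 and 9 in quiescent, 10 and 5 in activated and 10 each in reactivated libraries, so that activated replicate 1 held more than either quiescent library.

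The strongest of these, *Yap1* +32846 (chr9:7968587-7969018), lies in an intron of *Yap1* and also in the annotated gene *Gm20416*. Its fold enrichment was 11.3 and 7.49 in quiescent and 10.01 and 6.92 in reactivated libraries, with no peak in either activated library. It ranked at the 95.8th and 86.9th percentiles of the quiescent lists, and the pileups behind these values were 85 and 97 reads in quiescent and 74 and 51 in reactivated libraries. The lowest pileups called in the activated libraries were 17 and 16 reads. The site stayed quiescent-specific with peaks limited to a −log10 q of 10 or more and with lists of equal length.

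The other 2 quiescent-specific sites of *Yap1* were weak. *Yap1* +17225 (chr9:7984403-7984624) had a fold enrichment of 3.55 and 2.98 in quiescent libraries, and *Yap1* +2692 (chr9:7998921-7999151) had 3.29 and 2.29. Neither had a peak in activated or reactivated cells. Both had no peak at a −log10 q of 10 or more, and *Yap1* +2692 was no longer specific with lists of equal length.

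**Figure D3:**
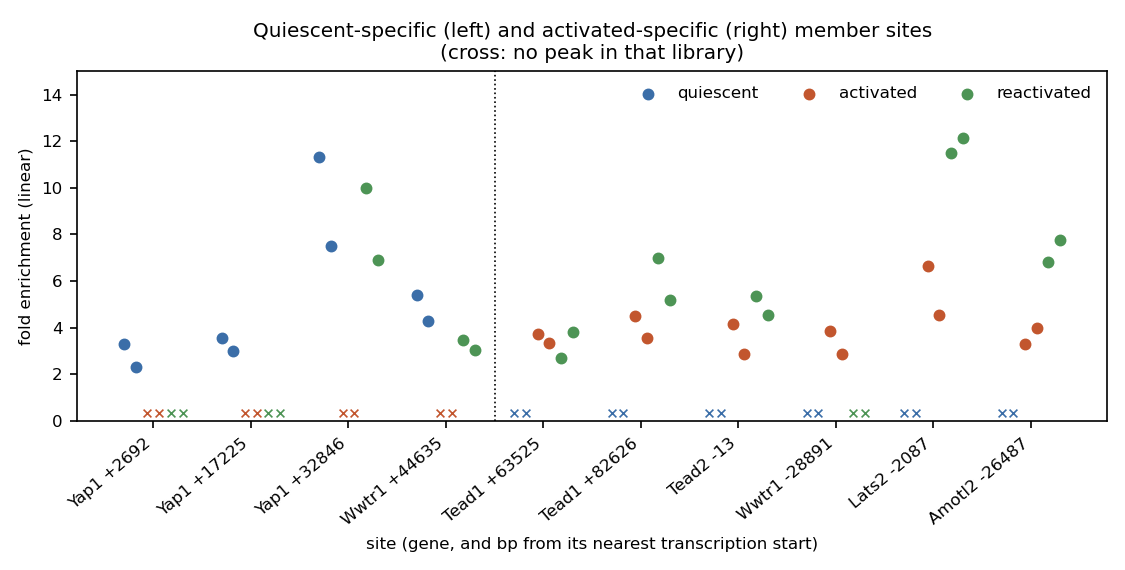
Fold enrichment, on a linear axis, of the 4 quiescent-specific and 6 activated-specific member sites in each of the 6 ATAC-seq libraries, with a cross where a library had no peak. *Yap1* +32846 and *Wwtr1* +44635 had peaks in the reactivated libraries too, and *Yap1* +2692, *Yap1* +17225 and *Wwtr1* -28891 did not.

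The *Yap1* promoter, *Yap1* -76 (chr9:8003329-8005011), was strong in every library, with a fold enrichment of 9.73 and 5.85 in quiescent cells, 9.13 and 9.06 in activated and 8.01 and 10 in reactivated libraries. The deposited values of the 3 states overlapped. After centring, reactivated cells were lower than quiescent cells by -0.63 ± 0.22 (SE, n = 2 per state, adjusted p = 0.0475 by limma), whereas without centring the difference was 0.25 (adjusted p = 0.380 by limma). It passed under 3 of 13 alternatives, whose adjusted p by limma ran from 0.00953 to 0.927. The adjusted p by limma was 0.0600 with the replicate block and 0.0717 with quantile normalization. The difference was -0.37 and -0.96 without quiescent replicates 1 and 2, and -0.49 and -0.76 without reactivated replicates 1 and 2. With pileups over the background of the library it was -0.04. Between activated and quiescent cells the difference at the promoter was 0.05 ± 0.22 (SE, n = 2 per state, adjusted p = 0.920 by limma).

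Within the gene, *Yap1* +41121 (chr9:7960259-7960777) was higher in reactivated than in quiescent cells. Its fold enrichment was 3.16 and 2.67 in quiescent cells, 3.98 and 4.42 in activated and 9.84 and 9.35 in reactivated libraries. The 3 states did not overlap. Reactivated and quiescent cells differed by 0.85 ± 0.19 on the scaled log2 scale (SE, n = 2 per state), or 1.80-fold, with an adjusted p of 0.00675 by limma, and the adjusted p was 0.0567 without quiescent replicate 2, 0.0592 without reactivated replicate 1, 0.0503 with missing peaks at the lowest value and 0.0574 with the mean of the peaks in a site. Another intronic site, *Yap1* +7262, had 10.2 and 11.1 in reactivated against 3.58 and 4.99 in activated libraries, a scaled log2 difference of 0.68 ± 0.23 (SE, n = 2 per state, adjusted p = 0.0612 by limma). Without centring *Yap1* +7262 was among the 10 member sites that passed in this comparison. Differences of like size between reactivated and activated cells were negative at other sites, with -0.67 at *Yap1* -76 (adjusted p = 0.0575 by limma) and -0.54 at *Tead1* +1410 (adjusted p = 0.0652 by limma), and 10 of the 18 sites had a negative difference.

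*Wwtr1*, which encodes the YAP paralog TAZ, had sites specific to either state. *Wwtr1* +44635 (chr3:57530834-57531324), in an intron, was quiescent-specific, with a fold enrichment of 5.39 and 4.28 in quiescent and 3.47 and 3.06 in reactivated libraries. *Wwtr1* -28891 (chr3:57604688-57604974), which lies between genes, was activated-specific, with 3.85 and 2.85 in activated libraries and no peak in the other 4. By mean percentile over the lists with a peak, the highest *Wwtr1* site away from promoters was *Wwtr1* +32857, with a peak in reactivated replicate 2 alone (4.65, 46.6th percentile). That ranking rests on 1 library. *Wwtr1* +44635 stood higher in quiescent libraries, at the 69.0th and 63.8th percentiles, and lower in reactivated ones, at the 23.8th and 12.0th. Of the 2 specific sites, only *Wwtr1* +44635 kept a peak in both libraries of its state at a −log10 q of 10 or more.

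The *Wwtr1* promoter, *Wwtr1* 0, was among the strongest member promoters, with a fold enrichment of 5.61 and 8.84 in quiescent cells, 9.49 and 7.38 in activated and 12.6 and 9.39 in reactivated libraries. The quiescent replicates differed by more than the means of the 2 states did. On the scaled log2 scale activated and quiescent cells differed by 0.03 ± 0.25 (SE, n = 2 per state, adjusted p = 0.960 by limma).

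The 2 kinase genes differed in their number of sites. *Lats1* had a promoter site alone, *Lats1* -32, with a fold enrichment of 6.18 and 5.04 in quiescent cells, 5.35 and 4.42 in activated and 11.5 and 9.80 in reactivated libraries. The scaled log2 difference between activated and quiescent cells was -0.42 ± 0.18 (SE, n = 2 per state, adjusted p = 0.162 by limma), and that between reactivated and activated cells was 0.47 ± 0.18 (SE, n = 2 per state, adjusted p = 0.0858 by limma). Between reactivated and activated cells *Lats1* -32 passed without centring, where 10 member sites did, and with pileups over the background of the library. *Lats2* had 12 sites, of which 2 had a peak in both quiescent, 3 in both activated and 6 in both reactivated libraries.

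The kinase genes had a single site specific to quiescent or activated cells, *Lats2* -2087 (chr14:57736178-57736536), which lies in an intron of *Lats2* and of the annotated gene *Gm49361*. Its fold enrichment was 6.63 and 4.56 in activated and 11.5 and 12.1 in reactivated libraries, with no peak in either quiescent library. It was the only activated-specific member site that stayed so at a −log10 q of 10 or more, with pileups of 49 and 31 reads in activated and 85 and 98 in reactivated libraries. With 1 TSS for each gene neither it nor the promoter site *Lats2* -65 was assigned to *Lats2*, the nearest TSS of both then being that of *Gm49361*. The *Lats2* promoter, *Lats2* -65, had 6.56 and 5.58 in quiescent cells, 7.62 and 6.14 in activated and 11.1 and 9.29 in reactivated libraries, and activated and quiescent cells differed there by -0.05 ± 0.18 on the scaled log2 scale (SE, n = 2 per state, adjusted p = 0.901 by limma).

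*Amotl2*, the junctional YAP-binding gene, had the member site away from promoters with the highest mean percentile over the libraries with a peak, although *Tead4* -6711 was higher in reactivated replicate 1 and *Yap1* +32846 in quiescent replicate 1. *Amotl2* +3868 (chr9:102723764-102724550), in an intron, had a fold enrichment of 9.09 and 12.3 in quiescent cells, 12.8 and 11.1 in activated and 13.6 and 14.02 in reactivated libraries. The quiescent and activated ranges overlapped, and on the scaled log2 scale these states differed by -0.05 ± 0.20 (SE, n = 2 per state, adjusted p = 0.910 by limma). At the promoter, *Amotl2* -60, the values were 7.31 and 6.27 in quiescent cells, 8.14 and 5.95 in activated and 10.98 and 11.02 in reactivated libraries, with a scaled difference of -0.18 ± 0.17 between activated and quiescent cells (SE, n = 2 per state, adjusted p = 0.541 by limma).

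A second promoter site of the gene, *Amotl2* -23, had 2.48 and 3.24 in quiescent cells, 5.21 and 4.80 in activated and 6.36 and 5.93 in reactivated libraries. Activated libraries were above quiescent ones without overlap, and the scaled log2 difference of 0.60 ± 0.20 (SE, n = 2 per state) had an adjusted p of 0.0750 by limma. *Amotl2* -23 passed without centring, where 4 member sites did, and with pileups over the background of the library. Upstream of the gene, *Amotl2* -26487 (chr9:102689744-102690725) was activated-specific, with 3.28 and 3.99 in activated and 6.81 and 7.78 in reactivated libraries.

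H3K4me3 marked the promoter of each member in both states and differed little in fold enrichment. Fold enrichment over input at the 9 promoter regions was 34.8 to 50.4 in quiescent and 35.7 to 44.7 in activated cells, lowest at *Tead3* and highest at *Lats1* in both. With 1 library per state there is no replicate check and no test. Ratios were centred on the median log2 ratio of all regions, -0.11. Of 15572 regions found in both states, 6.14% differed by more than 1.5-fold, and of the 13 member regions found in both states, 2 did. Neither was a promoter: the region 63.5 kb into *Wwtr1* had 2.90 in quiescent and 4.51 in activated cells, a centred log2 ratio of 0.75, and the region 26.6 kb upstream of *Amotl2* had 10.9 and 6.41, a centred log2 ratio of -0.65.

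The marked promoter was narrower in activated cells by more than 1.5-fold at 2 genes. The region at the *Wwtr1* promoter was 5399 bp wide in quiescent and 3369 bp in activated cells, and that at the *Amotl2* promoter 5520 and 2996 bp. The ratios of widths, 0.624 and 0.543, lay at the 4.79th and 2.87th percentiles of all regions found in both states, whose median ratio was 0.938. At the other 7 promoters the ratio was 0.905 to 1.004. At *Amotl2* the quiescent library had a separate region of 2834 bp just downstream, over the strong intronic site *Amotl2* +3868, with a fold enrichment of 3.14, and the activated library had none there.

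**Figure D4:**
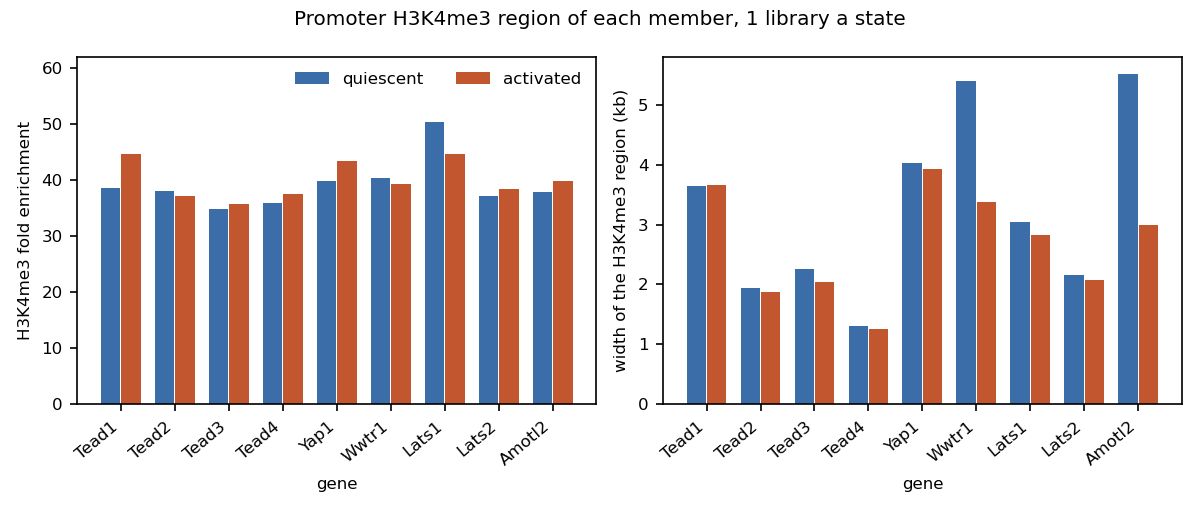
Bars give the fold enrichment over input (left) and the width in kb (right) of the H3K4me3 region at each member's promoter, in 1 quiescent and 1 activated library. Fold enrichments lie between 34.8 and 50.4, and the regions at *Wwtr1* and *Amotl2* are narrower in the activated library.

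Among weak H3K4me3 regions away from promoters that were called in 1 state alone, more were in the quiescent list. The same direction held over all regions, with 1564 in the quiescent list alone and 332 in the activated list alone. Of the 18 member regions, 4 were in the quiescent list alone and 1 in the activated list alone, where 8.95% and 1.90% of all regions were. The quiescent ones lay at *Tead1* (3 regions, with fold enrichments of 2.95, 4.99 and 3.49) and at *Amotl2* (1), and the activated one at *Tead1* (4.10). The *Tead1* region with 4.99 covers the site *Tead1* +64300 and part of *Tead1* +63525, and that with 3.49 covers *Tead1* +82626. At these places ATAC-seq peaks were stronger in, or specific to, activated cells while the H3K4me3 region was called in quiescent cells only. Of the 6 activated-specific member sites 2 overlapped such a region, where 2.05% of all activated-specific sites did, and these 2 are both in *Tead1*. At *Tead1* +63525 the overlap is at the edge only. The H3K4me3 region starts at position 112823174, the site ends at 112823196, and its summit at 112823061 lies outside the region. *Amotl2* -26487 likewise had its peaks in activated and not quiescent libraries, and its H3K4me3 was lower in activated cells. Upstream of *Yap1* by 13.2 kb, a region with a fold enrichment of 16.8 in quiescent and 13.8 in activated cells had no ATAC-seq peak in any library.

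TEAD cores were found in a larger share of member sites than of all sites. In the 200 bp around the summit, 20 of the 84 member sites held GGAATG on either strand, or 23.8%, where 11.8% of all sites did. These shares were not tested against each other. Sites of the same gene are not independent, and the members were chosen with earlier results known. At promoters the share was 6 of 15, where 7.41% of all promoter sites held it, and away from promoters 14 of 69, or 20.3%, where 12.9% did. The 6 promoter sites included the main promoter sites of *Tead3*, *Tead4*, *Yap1*, *Lats2* and *Amotl2*, and those of *Tead2*, *Wwtr1* and *Lats1* held none in this window. With the core extended by a base to GGAATGT, which the shorter motif includes, the share was 5.95% of member sites and 3.25% of all sites.

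Of the other motifs, AP-1 (TGANTCA) was in 12 of 84 member sites, or 14.3%, and in 7.62% of all sites, with none of the 12 at a promoter. The E-box CAGCTG was in 19, or 22.6%, where 21.7% of all sites held it. The palindromic NFI motif was in 0 of the 84 and in 0.105% of all sites. None of the 4 quiescent-specific sites held a TEAD core, and 2 of the 6 activated-specific sites did, where 13.9% and 13.6% of all sites of these classes held one. The E-box was in 0 of the 6, where 43.6% of all activated-specific sites held it. A match is only a run of letters and no measure of binding, and sites of 1 gene are not independent of each other.

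**Figure D5:**
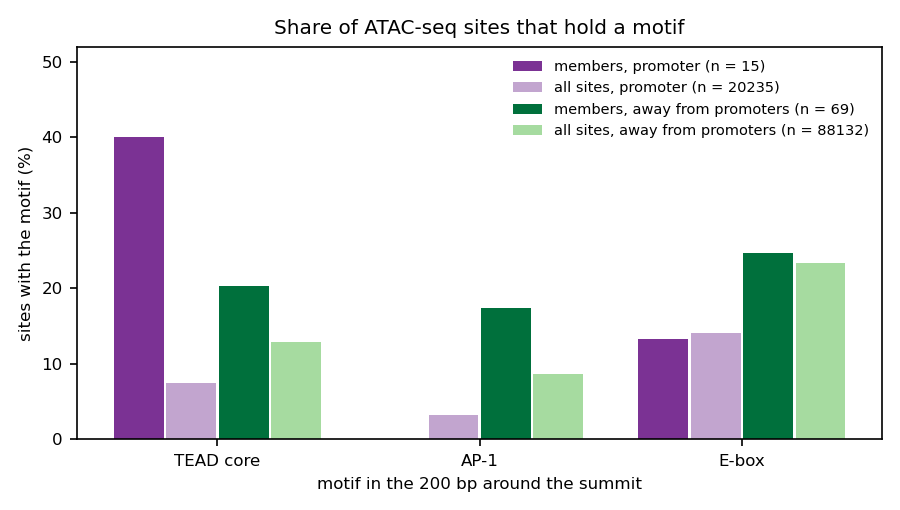
Bars give the percent of sites with a TEAD core, an AP-1 motif or an E-box in the 200 bp around the summit, for member sites and all sites, at promoters and away from them. The TEAD core was in 6 of the 15 member promoter sites and 7.41% of all promoter sites, while the E-box shares lie close to each other.

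A second look at promoters used bases from 250 before to 50 after annotated starts, from the RefSeq promoter table for GRCm38.p6. It held 11 entries for 7 of the 9 members. Of these, 7 held a TEAD core, where 14.7% of 32851 promoters did. They included 1 entry of *Tead3* with 3 matches and both entries of *Wwtr1*, which share most of their bases. The match in *Wwtr1* lies outside the 200 bp around its summit. The *Tead3* entry, on the minus strand of chr17:28350551-28350850, is shown for its 3 matches.
Tead3 promoter: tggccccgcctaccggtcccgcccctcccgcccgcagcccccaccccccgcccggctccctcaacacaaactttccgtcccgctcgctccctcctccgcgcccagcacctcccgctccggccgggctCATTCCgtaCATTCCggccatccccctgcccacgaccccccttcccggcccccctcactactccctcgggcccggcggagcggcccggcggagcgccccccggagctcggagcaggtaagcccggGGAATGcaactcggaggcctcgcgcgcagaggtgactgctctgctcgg

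The other genes of the Hippo pathway, a list of 35, held 250 sites near 34 of them, with 72 tested. Activated against quiescent, 7 of the 72 passed, 2 higher and 5 lower, or 9.72%. Reactivated against quiescent, 23 passed, 4 higher and 19 lower, or 31.9%. Reactivated against activated, 13 passed, 3 higher and 10 lower, or 18.1%. These shares are near those of all sites, and the medians were -0.12, -0.22 and -0.18. *Map4k4*, a kinase that can act on LATS, had the largest change between activated and quiescent cells, -1.17 ± 0.27 (SE, n = 2 per state, adjusted p = 0.0166 by limma) 40.8 kb downstream of its TSS. The fold enrichment there was 9.5 and 8.37 in quiescent and 7.29 and 2.91 in activated libraries, so its size and rank rest largely on activated replicate 2. *Mob1b*, a LATS cofactor, followed with -0.95 ± 0.18 (SE, n = 2 per state, adjusted p = 0.00638 by limma) at 17.2 kb upstream. The promoter of *Taok3*, a kinase upstream in the pathway, was lower in reactivated than in quiescent cells by -1.42 ± 0.17 (SE, n = 2 per state, adjusted p = 0.000884 by limma). At 2 sites near the start of *Fat1*, an atypical cadherin, the same difference was -1.25 and -1.21. These changes include the centring shift of 0.87. The deposited values at *Taok3* were 12.1 and 12.5 in quiescent and 8.07 and 8.84 in reactivated libraries. Those at *Fat1* were 7.04 and 5.36 against 4.48 and 4.98, and 8.35 and 8.81 against 6.29 and 7.39.

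The known YAP and TEAD targets were tested at 51 of their 262 sites, near 19 of 22 genes. Activated against quiescent, 5 passed, 2 higher and 3 lower, or 9.80%, where 11.0% of all sites passed. Reactivated against quiescent, 15 passed, 11 higher and 4 lower, or 29.4%, where 33.6% of all sites passed and more were lower (22.5%) than higher (11.2%). The 11 higher sites lay near 6 genes and the 4 lower ones near 2. Reactivated against activated, 10 passed, 8 higher near 6 genes and 2 lower near 2 genes, or 19.6%, where 16.6% of all sites passed, 6.62% higher and 9.95% lower. The medians were 0.03, 0.05 and 0.10. The promoter of *Axl*, a receptor tyrosine kinase gene, was lower in activated than in quiescent cells by -1.01 ± 0.20 (SE, n = 2 per state, adjusted p = 0.00679 by limma), with 5.96 and 7.78 in quiescent cells, 4.27 and 3.66 in activated and 10.6 and 9.83 in reactivated libraries. A site in *Asap1*, a gene for an ARF GTPase-activating protein, rose by 1.003 ± 0.21 (SE, n = 2 per state, adjusted p = 0.0101 by limma). In reactivated against quiescent cells the largest rises were at *Rbms3* (1.28 and 1.14), an RNA-binding protein gene, and upstream of *Fjx1* (1.27).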

How the data were processed

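The members and gene lists were chosen with earlier results of these data known. Per the labels and methods, reads were trimmed with Trim Galore 0.4.0 and aligned to mm10 with Bowtie2 2.2.5. Duplicates were removed with Picard 1.88 and SAMtools 1.3.1, and peaks were called by the authors in each library with MACS at an FDR of 0.05. H3K4me3 was called as broad regions against input. The input libraries were not used here, and other MACS options for ATAC-seq are not given in the sources used here. The fold enrichment the authors deposited is a ratio of pileup to background, not scaled between libraries. Both −log10 columns that the authors deposited (p-values, q-values) grow with depth. The q column served only as a filter, and the p column only to recover the pileup. No use was made of the deposited score, which derives from q. Summits are deposited as offsets from the peak start.

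Peaks on autosomes, X and Y were kept, and 0.287 to 0.864% of ATAC-seq peaks were left out. The pileup was recovered from the fold enrichment and p, and 99.5 to 99.8% of peaks matched a whole read number within 0.02%. Genes and TSSs were those of GENCODE M21. The main test was limma 3.58.1 (R 4.3.3) with Benjamini-Hochberg adjustment over all sites, without a replicate term, and 2 libraries per state. Python 3.11.15, numpy 2.4.6, pandas 2.3.3, scipy 1.17.1 and matplotlib 3.10.9 did the rest. The fit, merging and motif search were tested on simulated data. Named are the members, their main promoter site, their strongest site away from promoters (highest mean percentile over the lists with a peak), all state-specific or called sites, and up to 3 called sites per other list and comparison, fewer of which are printed. *Tead1* +3835, *Tead2* +2, *Tead4* +4391, *Yap1* +7262 and *Amotl2* -23 were chosen after their values were seen. The comparison within the pair of libraries with the same lane label was chosen after seeing the data. The sequence of 1 promoter window is not reported here. Alternatives are in the closing section.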

Additional observations from a re-analysis of the deposited data

How the results depend on the processing

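With 2 libraries per state, each of the 5 called member sites was sensitive to single libraries. The named sites of the other gene lists were not recalculated in this way. Leaving out single ATAC-seq libraries, all sites called ranged from 1152 to 2102 (activated against quiescent), 3048 to 8898 (reactivated against quiescent) and 237 to 3602 (reactivated against activated), and member sites called from 0 to 2, 0 to 6 and 0 to 2. An arm with 1 library was assumed to vary like the others. Without centring, 2634, 15334 and 11531 of all sites and 4, 14 and 10 member sites were called, and *Yap1* -76 reversed to 0.25 in reactivated against quiescent cells. With missing peaks set to the lowest value of the list, the counts were 11059, 16566 and 17711 of all sites and 11, 14 and 9 member sites. Setting them so treats a missing peak as a measured value. With a −log10 q of 10 or more they were 881, 4327 and 2343, with 0, 0 and 0 of 6 member sites tested, by construction fewer. With the mean of the peaks in a site they were 1162, 4515 and 1856, with 1, 2 and 0 member sites. With pileups over the background, chosen after seeing the data, 1 member site was called in reactivated against activated cells. Quantile normalization and the fit of the 4 quiescent and activated libraries left the counts of all sites within 1.5 times. Where the cause of a change is not named, the cause was not tested. The 5 called member sites kept their direction in all of 63 recalculations but 1 and passed the threshold in 38.

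The correlation of replicate deviations over the tested sites was -0.00, 0.04 and -0.02 between states, so the replicate numbers carried no shared deviation there. Whether libraries with the same number came from the same animals or culture cannot be told from these values. The replicate block gave 2480, 7629 and 3598 calls over all sites and 2, 2 and 0 member calls.

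Quiescent-specific member sites numbered 2 at a −log10 q of 10 or more and 4 to 10 with a library left out, where 1 library then decides a state. Activated-specific sites numbered 3 with 1 TSS for each gene and 6 to 12 with a library left out. Shared sites numbered 10 at a −log10 q of 10 or more. At that minimum 11 H3K4me3 regions were counted, and 1 member region was past the fold there and with a window of 25 kb. The share of member sites with the TEAD core was 27.4% over whole sites, where 19.4% of all sites held it, and 30.9% at a −log10 q of 10 or more (11.5% of all). With the next base it was 5.95% (3.25% of all). Sites with fewer reads than the lowest called pileup could not be seen.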
